A study of Homo sapiens with 8 samples.

Results

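The 38 genes described here encode the machinery that makes ribosomes in the nucleolus, from RNA polymerase I to the factors that assemble the small and large subunits. They were taken by gene symbol from a table of 36474 genes, and each symbol matched 1 row. All 38 passed the filter on low counts, which kept 21071 genes for testing, and 37 of them were at 10 CPM (reads of a gene relative to its library's normalized total) or more in every library. The cells were LNCaP, an established line from a human metastatic prostate carcinoma. Cells were held for 6 to 12 h in medium free of serum and calcium and then given recombinant human ASPN (asporin), a small secreted proteoglycan of the extracellular matrix, at 100 ng/mL. RNA was taken at 0 h (2 libraries), 12 h (3 libraries) and 24 h (3 libraries), and the labels name the replicates as biological. The methods describe triplicate wells, and whether these came from separate experiments is not stated. The starvation and the ASPN label were shared by all 3 groups, and libraries without ASPN at the later times were not analysed here; hours in the starvation medium and exposure to ASPN cannot be told apart. In such bulk samples, fewer cells of a kind and less RNA per cell cannot be told apart either.

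Ribosome production starts in the nucleolus, where RNA polymerase I, guided to ribosomal DNA by the factor UBTF and by RRN3, transcribes a long precursor RNA. Small nucleolar ribonucleoproteins (snoRNPs) then modify that precursor, the box C/D type by methylation and the box H/ACA type by pseudouridylation, while large assemblies of processing factors cut and fold it into the 2 subunits. Many of these genes are known targets of MYC, and high output of ribosomes is a long-standing feature of prostate and other carcinomas. The libraries were made from mRNA, so the ribosomal RNA precursor itself was not measured.

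Library totals ran from 73406825 to 96962135 counts, and mitochondrial genes took 6.20% to 7.32% of them. The biological coefficient of variation, the typical spread of a gene between replicates beyond counting error, was 5.59%. Markers of the line were plentiful, with KLK3 at 899 to 1395 CPM and FOLH1 at 1671 to 1979 CPM, whereas PTPRC (leukocytes), PECAM1 (endothelium) and TP63 (basal cells) did not exceed 0.0722 CPM. COL1A1, a collagen gene of fibroblasts, stood at 18.8 to 21.4 CPM. One of the 0 h columns carries a number that no 0 h label has, and it is called the unnumbered 0 h library. The 0 h libraries differed from each other in these genes, since 28 of the 38 were lower in 0 h replicate 1 than in the unnumbered library.

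Transcript levels of the ribosome biogenesis genes moved little over 24 h, and no member reached a 1.5-fold change. UBTF, NOP56 and BOP1 rose at both times, GNL3 fell at both times, and GTPBP4, RRS1, RRP9 and RRP1B (higher) and NPM1 (lower) passed the test at 24 h. At 12 h, 3 of the 38 were called higher and 1 lower at an adjusted p of 0.05 (edgeR quasi-likelihood test, adjusted over all 21071 genes), which is 7.89% and 2.63% of the members, beside 4.85% and 6.75% of all genes tested. At 24 h, 7 were called higher and 2 lower, which is 18.4% and 5.26%, beside 7.82% and 8.49% of all genes. Genes as abundant as most members were called more often: among the 9524 genes at 10 CPM or more, 8.69% were higher and 12.8% lower at 12 h, and 13.3% were higher and 14.8% lower at 24 h. Between 12 h and 24 h no member was called by the main edgeR fit and 8 had an unadjusted p under 0.05, while 1.12% of all genes were called higher and 1.61% lower. DESeq2 called 1, and some edgeR fits with other settings also called members. The study's second requirement of at least 1.5-fold was met by 0 of the 38 in each comparison, beside 1.05% of all genes at 12 h, 2.45% at 24 h and 0.18% between 12 h and 24 h.

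The shift of the set as a whole was small. Its median log2 change was 0.045 at 12 h and 0.091 at 24 h, against medians of −0.00069 and −0.0031 for all genes tested, and 26 and then 29 of the 38 changes were above 0 (49.9% and 49.4% of all genes). From 12 h to 24 h the median was 0.046 against 0.0035 for all genes, and 28 of the 38 were above 0 (51.0% of all genes). Among genes at 10 CPM or more, the medians were −0.011 at 12 h, −0.0025 at 24 h and 0.012 from 12 h to 24 h. Of those genes, 46.8%, 49.2% and 55.9% were above 0. Summed over the 38 genes, the mean level ± SD was 6130 ± 71.9 CPM for the 2 libraries of 0 h, 6083 ± 125 CPM for the 3 of 12 h and 6140 ± 14.1 CPM for the 3 of 24 h, and the libraries of the 3 groups overlapped. NPM1, which fell, and NCL make up a large part of these sums. Without them the sums were 3010 and 3136 CPM at 0 h, 3078, 3209 and 3136 CPM at 12 h and 3220, 3209 and 3193 CPM at 24 h, and all 24 h libraries then lay above those of 0 h. No overlap between the libraries of 2 groups was seen at 12 h for 5 members that were higher and 3 that were lower, when 17.3% and 19.6% of all genes separated in those directions. At 24 h the libraries separated for 21 higher and 7 lower of the 38 members, beside 21.5% and 21.7% of all genes. Between 12 h and 24 h these counts were 9 and 1, beside 10.3% and 9.33%. For separation no share was computed among genes at 10 CPM or more, which were called more often than all genes. Over the 3 time points together, 7 members passed the adjusted p of 0.05, where 16.4% of all genes did.

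The counts depended on single libraries. Without 0 h replicate 1, 1 member was called at 12 h (UBTF) and 6 at 24 h, and the median change at 12 h was 0.010. Without the unnumbered 0 h library 7 were called at 12 h and 15 at 24 h. Leaving out 24 h replicate 1 gave 5 calls at 24 h, and leaving out 12 h replicate 2 gave 2 between 12 h and 24 h. UBTF, NOP56, BOP1, GTPBP4 and GNL3 kept their 24 h calls in all 16 alternatives tried, and UBTF also kept its 12 h call in all 16. For 37 of the 38 genes the 95% confidence interval of the change lay inside 1.5-fold either way in every comparison, the exception being NOP2.

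**Figure D1:**
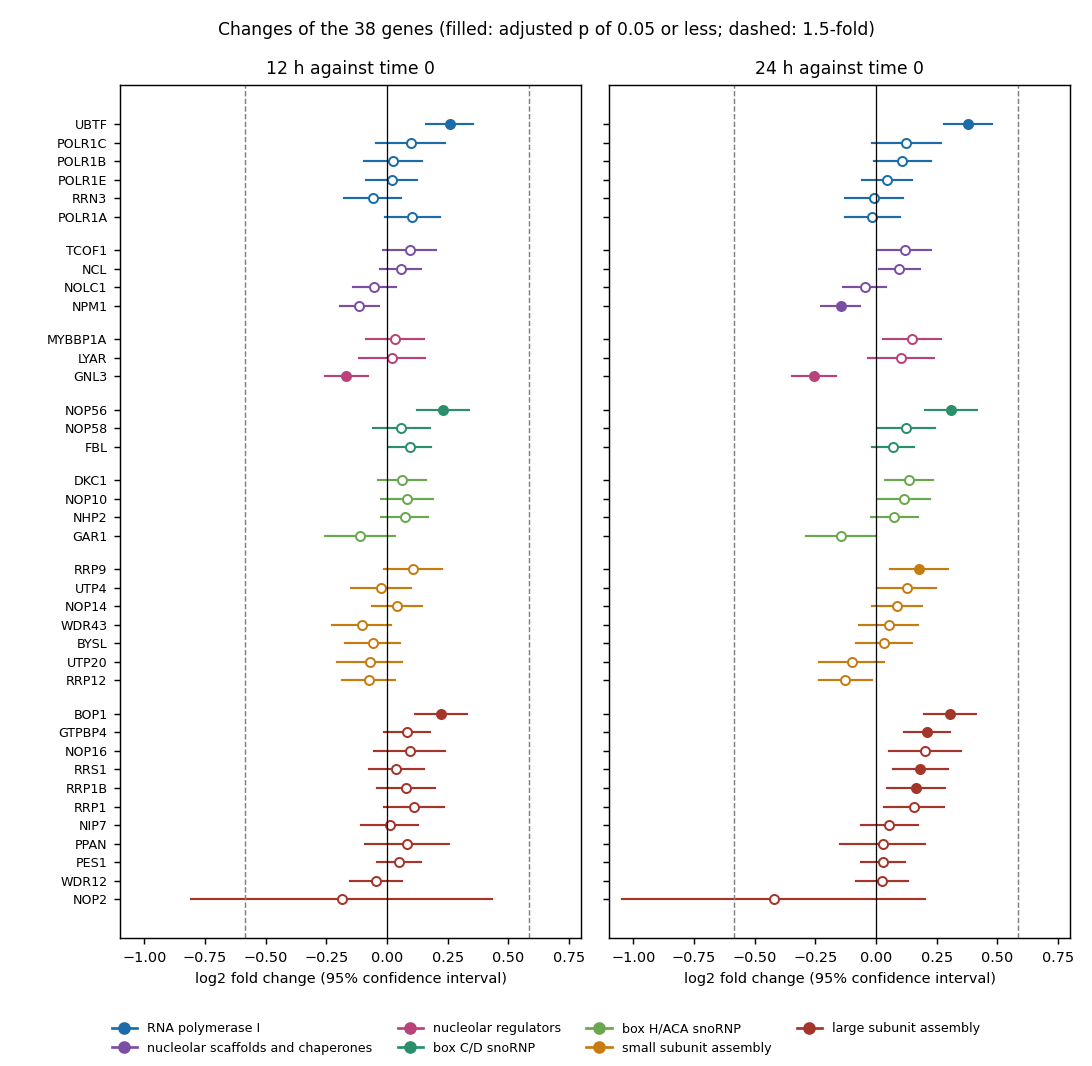
Log2 fold changes of the 38 genes at 12 h (left) and 24 h (right) against 0 h, with 95% confidence intervals, in colour by role. Filled points passed an adjusted p of 0.05, 4 at 12 h and 9 at 24 h, and the dashed lines mark 1.5-fold, which only the intervals of NOP2 cross.

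The members spanned a wide range of levels. Per kb of exon, the mean over the 8 libraries was highest for NPM1 at 230 CPM per kb, followed by FBL at 145, NCL at 118, GNL3 at 89.3, NHP2 at 82.2 and NOLC1 at 81.5. The lowest well-detected members were PPAN at 4.09, POLR1C at 3.999 and UTP20 at 3.28 CPM per kb. In this order 28 of the 37 neighbouring pairs had libraries that overlapped, while NPM1, FBL and NCL were each separated from the next below. The length used joins all annotated exons of a gene, 8311 bases for NPM1, 2138 for FBL and 8919 for NCL. The order between genes therefore depends on the annotation as well as on the counts, and only a broad order can be read. Before division by length NCL was above FBL, at 1013 against 296 CPM on average at 0 h. NOP2, which encodes an rRNA cytosine methyltransferase, was listed at 0.14 CPM per kb with 441 counts in all 8 libraries together. Of its exon bases, 54.4% are shared on the same strand with another annotated gene (ENSG00000285238), so its counts are uncertain.

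**Figure D2:**
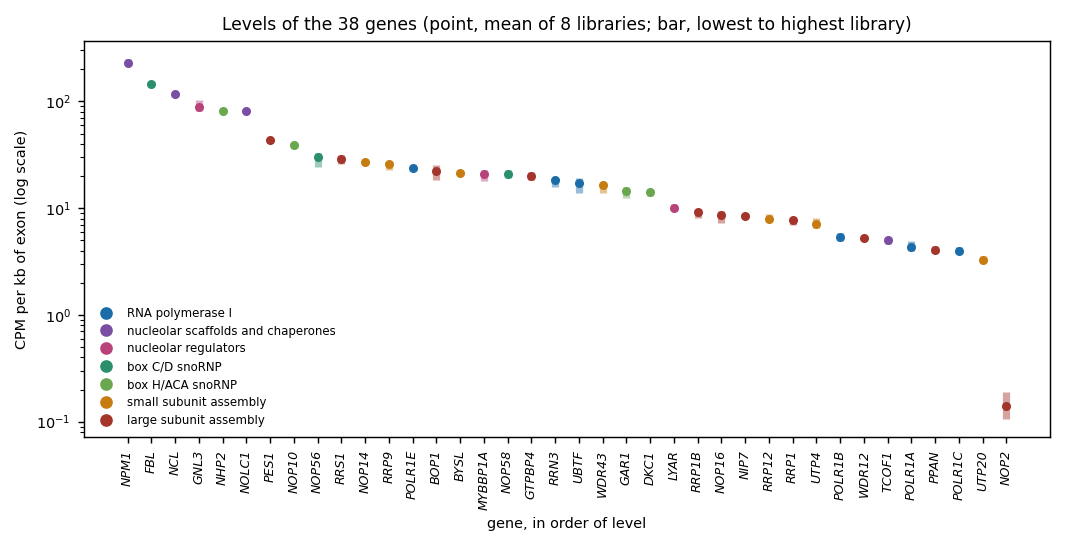
Level of each of the 38 genes in CPM per kb of exon (all annotated exons of the gene joined) on a log scale, ordered from NPM1 (230) to NOP2 (0.14). Points are means of the 8 libraries and bars run from the lowest to the highest library, which for most genes is narrower than the gap between the abundant and the scarce members.

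Among the 6 genes of the RNA polymerase I apparatus, only UBTF passed the test. UBTF (ENSG00000108312.15, GRCh38 chromosome 17, 44205033 to 44221626) encodes the upstream binding factor, an HMG-box protein that keeps ribosomal DNA in an open state and helps recruit the polymerase. It was at 99.1 and 104 CPM in the 0 h libraries, at 125, 123.5 and 116.5 CPM at 12 h, and at 135, 130 and 132 CPM at 24 h, with no overlap between any of the 3 groups. The log2 change was 0.26 ± 0.048 (SE) at 12 h (adjusted p = 3.49e-04) and 0.38 ± 0.048 at 24 h (adjusted p = 5.62e-07), which is 29.99% above 0 h. It had the largest increase of the 38 genes at both times. From 12 h to 24 h it differed by 0.12 (adjusted p = 0.139).

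The genes of the catalytic core did not pass the test, and whether they differed from UBTF was not tested. POLR1A, the largest subunit, was at 79.9 and 87.2 CPM at 0 h, at 85.2, 87.9 and 96.1 CPM at 12 h and at 87.1, 82.2 and 78.5 CPM at 24 h, and the groups overlapped throughout. POLR1B, the second largest subunit, was at 46.4 and 48.0 CPM at 0 h, at 44.3, 50.2 and 49.4 CPM at 12 h, and at 50.9, 49.0 and 52.7 CPM at 24 h. Its 24 h libraries all lay above those of 0 h, with a log2 change of 0.11 (95% confidence interval −0.0099 to 0.23, adjusted p = 0.233). POLR1C, a subunit shared with RNA polymerase III, stood at 20.8, 22.2 and 22.7 CPM on average at 0, 12 and 24 h, with log2 changes of 0.10 and 0.13. POLR1E, another polymerase I subunit, stood at 57.9, 58.6 and 59.7 CPM, with changes of 0.019 and 0.045. RRN3, the factor that makes the polymerase competent to start, stood at 76.9, 73.8 and 76.5 CPM, with changes of −0.060 and −0.0088. RRN3 has partial copies elsewhere in the genome that could share reads. None of these 5 genes passed at either time, and their median with UBTF was 0.060 at 12 h and 0.076 at 24 h.

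The nucleolar scaffolds and chaperones did not move together. NPM1 (ENSG00000181163.14, chromosome 5, 171387116 to 171411810) encodes nucleophosmin, an abundant chaperone of the granular part of the nucleolus. It was at 2086 and 2003 CPM at 0 h, at 1863, 1933 and 1870 CPM at 12 h and at 1835, 1844 and 1869 CPM at 24 h. Both later groups lay below 0 h, and the log2 change was −0.11 ± 0.040 at 12 h (adjusted p = 0.0570) and −0.14 ± 0.040 at 24 h (adjusted p = 0.00962). The 24 h call was lost without 0 h replicate 1 (adjusted p = 0.123) and without 24 h replicate 1 (adjusted p = 0.0527). The processed pseudogene NPM1P27 is 98.2% identical to NPM1 over 63.2% of its transcript and held 33858 counts, against 1291222 for NPM1 itself.

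NCL, which encodes nucleolin, a factor in the folding of the precursor RNA, was at 984 and 1043 CPM at 0 h, at 1036, 1080 and 1045 CPM at 12 h and at 1081, 1074 and 1093 CPM at 24 h. The 24 h libraries lay above those of 0 h, and the change of 0.096 did not pass (adjusted p = 0.118). TCOF1 encodes treacle, which links transcription and modification of ribosomal RNA, and was at 52.4 and 57.1 CPM at 0 h, at 56.8, 59.2 and 58.8 CPM at 12 h and at 59.7, 57.1 and 61.4 CPM at 24 h. Its changes of 0.092 and 0.12 did not pass (adjusted p = 0.312 and 0.142). NOLC1, a chaperone of snoRNPs, was close to level at 332, 320.1 and 321 CPM on average, with changes of −0.052 and −0.047.

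Of the nucleolar regulators, GNL3 fell. GNL3 (ENSG00000163938.17, chromosome 3, 52681156 to 52694497) encodes nucleostemin, a nucleolar GTPase that is abundant in stem and tumour cells. It was at 332 and 311 CPM at 0 h, at 287, 288 and 285 CPM at 12 h and at 261, 273 and 275 CPM at 24 h, a descending series of groups without overlap. The log2 change was −0.17 ± 0.044 at 12 h (adjusted p = 0.00919) and −0.26 ± 0.044 at 24 h (adjusted p = 5.72e-05), the latter a level 0.838 times that of 0 h. Without 0 h replicate 1 the 12 h call was lost (adjusted p = 0.248) and the 24 h change was −0.21.

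MYBBP1A, a nucleolar protein that binds MYB and p53, showed how far the 0 h libraries could lie apart, at 107 and 131 CPM. It was at 116, 125 and 122 CPM at 12 h and at 135, 130 and 129 CPM at 24 h. The 24 h change of 0.15 did not pass (adjusted p = 0.0868), and it was 0.0028 without 0 h replicate 1 and 0.31 without the unnumbered library. LYAR, a zinc finger protein of the nucleolus, was at 22.8 and 21.7 CPM at 0 h, at 22.0, 23.6 and 22.0 CPM at 12 h and at 23.0, 25.0 and 23.7 CPM at 24 h. Its changes of 0.018 and 0.10 did not pass (adjusted p = 0.911 and 0.341).

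In the box C/D snoRNP, which carries 2′-O-methylation, NOP56 rose and its partners did not pass. A difference between NOP56 and its partners was not tested. NOP56 (ENSG00000101361.17, chromosome 20, 2652593 to 2658393) encodes a core scaffold protein of the particle. It was at 120.2 and 137 CPM at 0 h, at 144, 160.5 and 147 CPM at 12 h and at 163, 159.5 and 156 CPM at 24 h. Every later library lay above both 0 h libraries, while 12 h and 24 h overlapped. The log2 change was 0.23 ± 0.053 at 12 h (adjusted p = 0.00351) and 0.31 ± 0.053 at 24 h (adjusted p = 6.29e-05). The 0 h libraries set much of its size: without 0 h replicate 1 the changes were 0.14 (adjusted p = 0.273) and 0.21 (adjusted p = 0.0226), and without the unnumbered library they were 0.34 and 0.41.

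FBL encodes fibrillarin, the methyltransferase of the particle, and was at 292 and 301 CPM at 0 h, at 326, 310 and 314 CPM at 12 h and at 310, 312 and 311 CPM at 24 h. All later libraries lay above 0 h, but the changes of 0.096 and 0.071 did not pass (adjusted p = 0.159 and 0.299). NOP58, the paired scaffold of NOP56, was at 63.8 and 65.5 CPM at 0 h, at 63.4, 74.4 and 64.1 CPM at 12 h and at 69.4, 69.9 and 72.1 CPM at 24 h. Its 24 h libraries were above 0 h, with a change of 0.12 (adjusted p = 0.1503).

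None of the 4 box H/ACA proteins passed the test. DKC1 encodes dyskerin, the pseudouridine synthase that is also part of telomerase, and was at 119 and 127 CPM at 0 h, at 123, 131 and 131 CPM at 12 h and at 139, 136 and 131 CPM at 24 h. Its 24 h change of 0.14 ± 0.048 was next to the threshold (adjusted p = 0.0514), and it passed in 8 of the 16 alternatives. NOP10, a small protein of the same core, was at 57.1 and 60.3 CPM at 0 h, at 65.5, 61.1 and 59.6 CPM at 12 h and at 64.1, 64.2 and 62.7 CPM at 24 h, with a 24 h change of 0.12 (adjusted p = 0.139). GAR1, the subunit that aids release of the product, lay on the other side, at 29.3 and 30.9 CPM at 0 h, at 24.6, 30.8 and 28.1 CPM at 12 h and at 26.9, 27.1 and 27.9 CPM at 24 h. The 24 h libraries of GAR1 were all below 0 h, with a change of −0.14 (adjusted p = 0.189). NHP2, the RNA-binding subunit, stood at 117, 123 and 123 CPM on average, with changes of 0.073 and 0.076. Of its exon bases, 28.1% overlap RMND5B on the other strand.

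**Figure D3:**
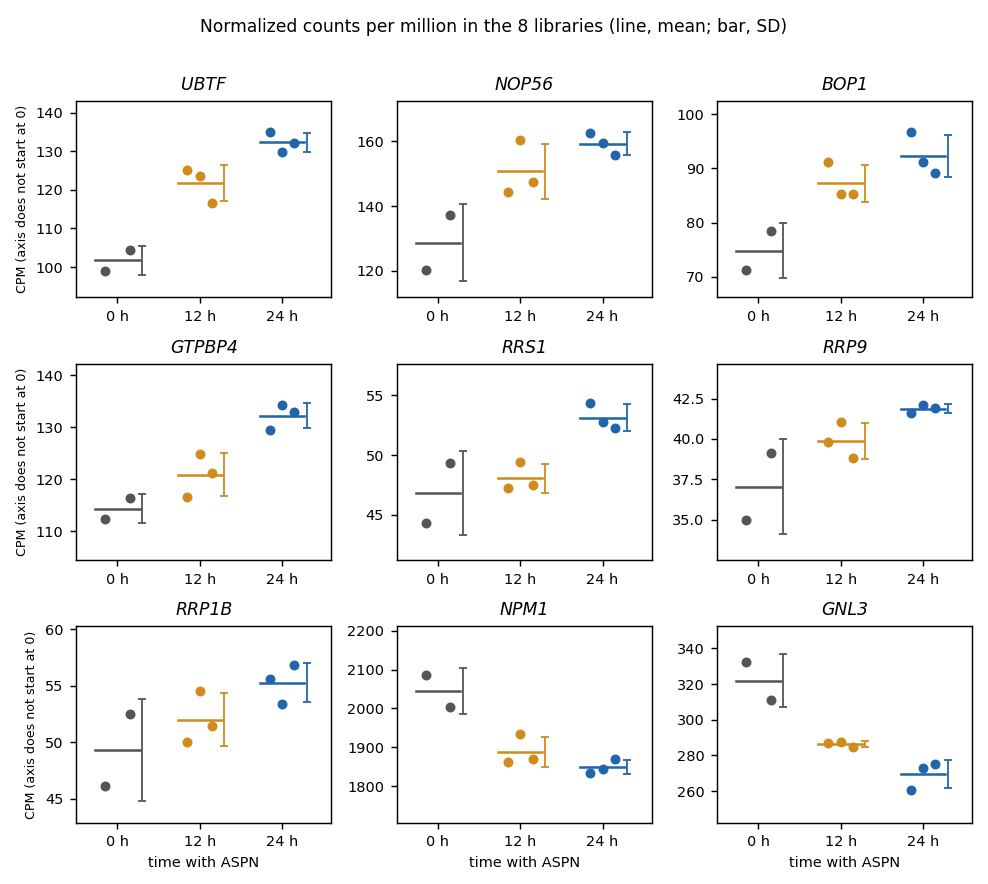
CPM in each of the 8 libraries for the 9 members called at 12 h or 24 h, with group mean (line) and SD (bar); each panel has its own axis, which does not start at 0. UBTF and GTPBP4 have close 0 h pairs relative to their 24 h change, while the 0 h pairs of NOP56, RRS1, RRP9 and RRP1B span much of theirs. All 9 have a 12 h mean between those of 0 h and 24 h, as do 28 of all 38 members.

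The small subunit factors were the only role group of members with a median below 0 at 12 h (−0.060, 5 of 7 below 0), and none passed there. At 24 h the median was 0.053 and RRP9 passed. RRP9 (ENSG00000114767.7, chromosome 3, 51933429 to 51941904) encodes a protein of the U3 snoRNP, which guides the first cuts of the precursor. It was at 35.0 and 39.2 CPM at 0 h, at 39.8, 41.0 and 38.8 CPM at 12 h and at 41.6, 42.1 and 41.9 CPM at 24 h. The 24 h libraries lay above all others, with a log2 change of 0.18 ± 0.058 (adjusted p = 0.0322). The call was lost without 0 h replicate 1 (adjusted p = 0.510) and without any one of the 24 h replicates (adjusted p = 0.0779 to 0.0931).

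UTP4 and WDR43 belong to the early complex that joins the precursor while it is transcribed. UTP4 was at 37.4 and 39.6 CPM at 0 h, at 36.6, 38.6 and 38.3 CPM at 12 h and at 42.0, 39.3 and 44.9 CPM at 24 h. WDR43 was at 67.8 and 68.1 CPM at 0 h, at 57.0, 70.3 and 62.0 CPM at 12 h and at 71.0, 70.3 and 70.1 CPM at 24 h. Both were higher at 24 h than at 12 h, by 0.15 and 0.16 on the log2 scale, without passing the test (adjusted p = 0.138 and 0.117), and WDR43 passed without 12 h replicate 2 and with GC and length offsets (adjusted p = 0.00355 to 0.495 over its 17 alternatives). RRP12, a factor in export and maturation of the subunit, had the largest 24 h deficit of the group, at 70.8, 67.2 and 64.9 CPM on average and a change of −0.13 (adjusted p = 0.111), and it passed without 0 h replicate 1 and with GC and length offsets. The other means at 0, 12 and 24 h were 93.4, 96.0 and 99.2 CPM for NOP14, a scaffold of the processome, 41.7, 39.99 and 42.6 CPM for BYSL, which acts on late precursors, and 34.4, 32.7 and 32.1 CPM for UTP20, a very large processome protein. Their 24 h changes of 0.087, 0.033 and −0.10 did not pass.

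The large subunit factors held 4 of the 7 higher calls at 24 h, with none of the 11 lower, a median of 0.16 and 10 of 11 changes above 0. The higher calls were 36.4% of the group, beside 13.3% higher and 14.8% lower among genes at 10 CPM or more. Of the 4 calls, those of RRS1 and RRP1B were lost without 0 h replicate 1. Of the 52 other large subunit factors, 11.5% were called higher and 5.77% lower at 24 h, with a median of 0.021 and 57.7% above 0. At 12 h the median of the 11 members was 0.077 and only BOP1 passed. BOP1 (ENSG00000261236.8) forms, with PES1 and WDR12, a complex needed to process the precursor of the large subunit RNAs. It was at 71.2 and 78.5 CPM at 0 h, at 91.2, 85.3 and 85.2 CPM at 12 h and at 96.6, 91.2 and 89.2 CPM at 24 h. All later libraries were above 0 h, with log2 changes of 0.22 ± 0.053 at 12 h (adjusted p = 0.00459) and 0.30 ± 0.053 at 24 h (adjusted p = 7.47e-05). The 12 h call was lost without 0 h replicate 1 (adjusted p = 0.235).

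The partners of BOP1 did not pass. PES1 stood at 192, 198 and 195 CPM on average at 0, 12 and 24 h and WDR12 at 51.0, 49.5 and 51.95 CPM, and their 24 h changes were 0.027 (95% confidence interval −0.064 to 0.12) and 0.026 (−0.082 to 0.13). Whether BOP1 differed from its partners was not tested.

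GTPBP4 (ENSG00000107937.19, chromosome 10, 988434 to 1019932) encodes a GTPase that binds early precursors of the large subunit. It was at 112 and 116 CPM at 0 h, at 117, 125 and 121 CPM at 12 h and at 129.5, 134 and 133 CPM at 24 h. The 24 h libraries were above all others, and the log2 change from 0 h was 0.21 ± 0.047 (adjusted p = 0.00149). From 12 h to 24 h the change of 0.13 did not pass (adjusted p = 0.0950), and 4 of 17 alternatives called it.

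RRS1 (ENSG00000179041.4), which helps to install the 5S ribonucleoprotein, was at 44.3 and 49.3 CPM at 0 h, at 47.3, 49.4 and 47.5 CPM at 12 h and at 54.4, 52.8 and 52.2 CPM at 24 h. Its 24 h libraries were above all others, with a change of 0.18 ± 0.055 (adjusted p = 0.02004). RRP1B, a nucleolar partner of protein phosphatase 1 and relative of yeast Rrp1, was at 46.2 and 52.5 CPM at 0 h, at 50, 54.6 and 51.4 CPM at 12 h and at 55.6, 53.4 and 56.8 CPM at 24 h. Its 24 h change was 0.16 ± 0.058 (adjusted p = 0.0492), only just past the threshold. Both calls were lost without 0 h replicate 1 (adjusted p = 0.422 and 0.657). They were also lost without 24 h replicate 1 (0.0961 and 0.132) and without 24 h replicate 2 (0.0543 and 0.0605), and that of RRP1B without 12 h replicate 3 (0.0618) and without 24 h replicate 3 (0.174).

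The remaining factors of the large subunit did not pass. NOP16, a nucleolar assembly factor, stood at 22.6, 24.1 and 26.0 CPM on average with a 24 h change of 0.20 (adjusted p = 0.0525). It was called in 8 of 16 alternatives, and its change was 0.059 without 0 h replicate 1 and 0.36 without the unnumbered library. RRP1, the relative of RRP1B, stood at 30.9, 33.3 and 34.4 CPM with a change of 0.16 (adjusted p = 0.0741). NIP7, a small RNA-binding factor, stood at 39.5, 39.8 and 41.0 CPM with a change of 0.055. PPAN, the counterpart of yeast Ssf1, stood at 11.5, 12.2 and 11.7 CPM with a change of 0.028, and shares 47.6% of its exon bases with the read-through gene PPAN-P2RY11. NOP2 was listed at 0.76, 0.67 and 0.57 CPM with a change of −0.42 and an interval from −1.05 to 0.20, the only one too wide to read.

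Base composition was set beside the calls. The 7 members called higher at 24 h had a GC content of 44.9% to 65.6% and those called lower, GNL3 and NPM1, 41.4% and 37.9%, within a range of 37.9% to 65.6% for all 38. With each library corrected for GC content and length, 15 members were called at 24 h, 13 higher and 2 lower. The lower calls were then GNL3 and RRP12 (GC content 58.6%). The higher ones included NOP58 (40.9%), NCL (42.8%), POLR1B (43.0%) and NOP10 (43.0%) as well as BOP1 (65.6%) and UBTF (55.0%). The correction takes out any trend with GC by design. The 24 h change of BOP1, the member richest in GC, was then 0.14 (adjusted p = 0.00734), that of UBTF 0.32, that of NOP56 0.31, that of GTPBP4 0.25 and that of GNL3 −0.19. The 24 h calls of NPM1 (adjusted p = 0.201) and RRP9 (0.0891) and the 12 h calls of BOP1 (0.282) and GNL3 (0.0726) were lost. The part of base composition in the changes was not tested.

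Of the members, 8 carry snoRNA genes inside their own gene: GNL3 (6), NOP56 (5), NOP58 (4), NCL (3), WDR43 (3), DKC1 (2), PPAN (2) and POLR1C (1). Their median 24 h change was 0.11, against 0.081 for the other 30 members. The hosts with the most snoRNA genes, GNL3 and NOP56, were called in opposite directions.

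The wider pathway was read from 6 further lists of 161 genes tested. Of these, 11 were called higher and 7 lower at 12 h (6.83% and 4.35%), beside 4.85% and 6.75% of all genes tested. At 24 h, 16 were called higher and 7 lower (9.94% and 4.35%), beside 7.82% and 8.49% of all genes and 13.3% and 14.8% of genes at 10 CPM or more. The counts of single lists are to be read against these shares. All calls in the further lists come from the main fit, and the alternative fits were not read for them. The medians of the 161 genes were 0.0045 and 0.029. None reached 1.5-fold. Between 12 h and 24 h, DIMT1, a methyltransferase of the small subunit RNA, was called higher (0.27, adjusted p = 0.00751) and MDN1, a giant ATPase of large subunit maturation, lower (−0.33, adjusted p = 0.0104). Some called genes of these lists have exons that overlap another gene on the other strand. The overlap is 22.8% of exon bases for POLR2L (with CD151), 22.3% for DIMT1 (KIF2A), 16.3% for EXOSC8 (SUPT20H) and 8.89% for RUVBL1 (SEC61A1).

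Among 15 other subunits of RNA polymerase I and of its selectivity factor SL1, 2 were called higher at 12 h and 1 at 24 h. POLR2L, a subunit common to the nuclear polymerases, changed by 0.25 and 0.22 (adjusted p = 0.00441 and 0.00872), and TAF1C, a subunit of SL1, by 0.23 at 12 h (adjusted p = 0.0393) and 0.20 at 24 h (adjusted p = 0.0587). Of 21 genes of RNA polymerase III, which makes the 5S RNA and the tRNAs, none was called at 12 h and 2 at 24 h, BRF1 at 0.28 and POLR3K at 0.33 (adjusted p = 2.58e-04 and 0.00145).

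Of 52 other large subunit factors, 4 were called higher and 4 lower at 12 h, and 6 higher and 3 lower at 24 h. The smallest p over all times belonged to genes that fell: DDX21, a helicase of nucleolar RNA, by 0.23 and 0.20 (adjusted p = 5.38e-04 and 9.33e-04), and RSL24D1, a placeholder for a ribosomal protein, by 0.27 and 0.19 (adjusted p = 0.00101 and 0.0129). Of 50 other small subunit factors, 3 were higher and 2 lower at 12 h and 5 were higher at 24 h. RRP7A was called at both times, with changes of 0.20 and 0.21 (adjusted p = 0.0183 and 0.00870). DIMT1, which had the smallest p of the list over all times, was called at neither against 0 h (−0.11 and 0.16, adjusted p = 0.320 and 0.11).

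Of 14 genes of the RNA exosome, which trims and degrades the precursor, 1 was called lower at 12 h, and 2 were called higher and 3 lower at 24 h. EXOSC6 was at 55.0 and 51.8 CPM at 0 h, at 36.4, 39.8 and 40.2 CPM at 12 h and at 38.8, 40.4 and 37.5 CPM at 24 h. It had changes of −0.46 at both times (adjusted p = 1.52e-06 and 4.75e-07), larger in size than that of any called member. EXOSC8 changed by −0.17 at 12 h (adjusted p = 0.0695) and by −0.26 at 24 h (adjusted p = 0.00178). Of 9 factors that assemble snoRNPs, RUVBL2 and RUVBL1, the paired ATPases of that step, were called higher at 12 h (0.24 and 0.15, adjusted p = 0.00264 and 0.0279), and ZNHIT3 lower at 24 h (−0.21, adjusted p = 0.0193).

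MYC, a regulator of many of these genes, was at 322 and 319 CPM at 0 h, at 349, 364 and 361 CPM at 12 h and at 353, 354 and 359 CPM at 24 h. It rose by 0.16 ± 0.042 and 0.15 ± 0.042 (adjusted p = 0.00933 and 0.0118), without overlap with 0 h. The alternative fits were not read for MYC. Of the 9 genes of the MYC network, the other call was MXD3, a MAX partner, higher at 12 h (0.36, adjusted p = 0.0434) and at 0.017 by 24 h. Of the exon bases of MXD3, 24.2% overlap PRELID1 on the other strand and 19.5% are shared with RAB24 on the same strand. Its counts are therefore uncertain.

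**Figure D4:**
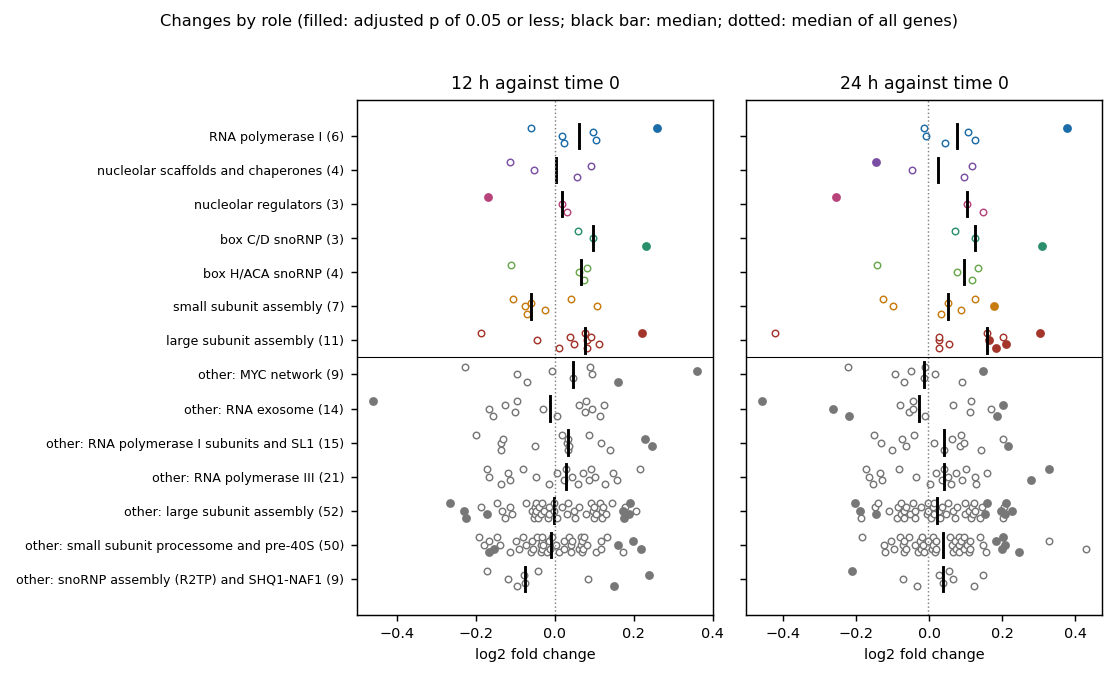
Log2 changes of the 38 genes by role (above the line, coloured) and of the further lists (below, grey) at 12 h and 24 h against 0 h. Filled points passed an adjusted p of 0.05, black bars are medians and the dotted line is the median of all genes. The large subunit group of members has the highest median at 24 h (0.16), while the 52 other large subunit factors have 0.021. Every median in the plot lies within 0.2 of 0.

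The hexamer CACGTG, known as the E-box that MYC binds, was searched in the stretch from 250 bases before to 50 bases after each annotated start (RefSeq, GRCh38.p14; the hexamer reads the same on both strands). A window was in the table for 30 of the 38 genes, with 38 windows in all. Of these, 14 windows of 14 genes held the hexamer (36.8%), against 7.26% of 35116 windows of all genes, 9.07% of 17865 windows of tested genes and 24.2% of 165 windows of the further lists. In 13 of the 14 windows a match lay within 50 bases of the start. All 6 small subunit genes with a window held it, as did all 3 nucleolar regulators, 2 of the box H/ACA genes, 2 of the large subunit genes and FBL. None of the 8 RNA polymerase I windows did. The 14 genes with the hexamer had a median 24 h change of 0.062 with 1 called higher (RRP9) and 1 lower (GNL3), and the 16 with a window but no hexamer had a median of 0.10 with 3 called higher and 1 lower. A match describes letters only, and binding was not measured.

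The following 7 matches are shown with 12 bases on either side (GRCh38, read on the strand of the gene, the hexamer in capitals), because they cover the called genes that hold it, RRP9 and GNL3, and members of 3 roles that were not called.
RRP9 (chr3:51941892-51941921, minus strand): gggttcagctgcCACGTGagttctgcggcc
GNL3 (chr3:52686026-52686055, plus strand): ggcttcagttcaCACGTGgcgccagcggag
FBL (chr19:39846356-39846385, minus strand): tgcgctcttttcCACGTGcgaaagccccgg
NOP10 (chr15:34343130-34343159, minus strand): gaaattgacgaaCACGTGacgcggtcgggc
NOP10, further upstream (chr15:34343289-34343318, minus strand): gtagggacactcCACGTGttttagcctgca
UTP4 (chr16:69132621-69132650, plus strand): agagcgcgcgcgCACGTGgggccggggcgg
UTP20 (chr12:101280083-101280112, plus strand): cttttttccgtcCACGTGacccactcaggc
The hexamer in RRP9 begins 5 bases before the start and that in GNL3 at position 7 after it. RRP9 was called higher at 24 h and GNL3 lower, and whether the hexamer bears on either change was not tested.

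The called genes whose windows lacked the hexamer are shown by the 30 bases that end just before each annotated start in the table (GRCh38, strand of the gene, no part in capitals).
UBTF, start 1 (chr17:44220883-44220912, minus strand): gcgggcggagcgcggcgcgtggggctcgcc
UBTF, start 2 (chr17:44219676-44219705, minus strand): gctgcctgcaggcggagggcgctgtgcttt
NOP56 (chr20:2652602-2652631, plus strand): tggttccgcgcgccggagcgcgctagccgc
GTPBP4 (chr10:988404-988433, plus strand): acagtggaagtcccacctgcgcccgacggc
NPM1, start 1 (chr5:171387086-171387115, plus strand): cagagtcggcccaccctccgagctctctta
NPM1, start 2 (chr5:171387819-171387848, plus strand): gtctatatataagcgcggggagcctgcgtc
No window was in the table for BOP1, RRS1, RRP1B, RRP12, NOP58, NOLC1, TCOF1 and POLR1E.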

How the data were processed

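Paired-end mRNA sequencing (TruSeq) of 8 LNCaP libraries was analysed. The deposited values are raw counts of reads per gene. Per the methods, the authors trimmed reads with Cutadapt, aligned them to GRCh38.p13 with STAR and counted GENCODE genes with featureCounts. How strand, mates and multi-mapping reads were handled is not given in the sources used here, so overlapping genes and near-identical copies can share reads. The authors left out 1 time-0 library for quality. The members and gene lists were chosen with earlier results of these data known.

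Counts were fitted with edgeR 4.0.16 in R 4.3.3 (TMM, filterByExpr, robust quasi-likelihood F test, 1 coefficient per time point, all 8 libraries) and adjusted by Benjamini-Hochberg over 21071 genes. SE were derived from the F statistic. CPM are TMM-normalized, and those of the marker genes were scaled by library total. Exon lengths and GC content came from GENCODE 44, whose coordinates equalled those of the file for all 30996 genes with the same versioned identifier. All members were named. Values per library were given for the 3 members of each role with the smallest p over all times, with RRP1B added after its values were seen. Of each further list the 2 genes with the smallest p were named, besides MYC, and EXOSC6 values per library, RUVBL1 and MDN1 were added after their values were seen. A count of 0 allows up to 0.0309 to 0.0409 CPM (3 counts, counting error only). Replicates within groups differed beyond sampling noise (chi-square per degree of freedom 5.32 to 15.2), so each counted once. The procedure was also run on simulated counts, drawn independently for each gene and library. These carry no shared differences such as those between the 0 h libraries, so that run cannot show how the procedure handles them. Alternatives were other normalizations (RLE, upper quartile), other filters, DESeq2 1.42.0, the compared time points alone, GC and length offsets, a replicate block, each library left out and, chosen after seeing the data, a block by column number over all libraries.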

Additional observations from a re-analysis of the deposited data

How the results depend on the processing

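No alternative reversed the direction of a called member or of a median. Of the recomputed counts and medians, 147 stayed within 1.5 times the count or within the replicate spread and 15 did not. The 147 include the counts of members past 1.5-fold, which were 0 in every fit and so had little room to change. Leaving out each library in turn gave 1 to 7 members called at 12 h, 5 to 15 at 24 h, 0 to 2 between 12 h and 24 h and 5 to 11 over all times. The median changes then ran from 0.010 to 0.097 at 12 h, from 0.052 to 0.12 at 24 h and from 0.023 to 0.081 between 12 h and 24 h. GC and length offsets gave 15 calls at 24 h, 4 between 12 h and 24 h and 15 over all times, and DESeq2 gave 1 between 12 h and 24 h. The cause was not tested. Of the recomputed values of single called members, 184 were past the threshold and 24 were not. The 12 h and 24 h libraries share replicate numbers. In their deviations from group means over 13467 genes, same-numbered libraries correlated at 0.102, 0.028 and 0.0261, and different-numbered ones at −0.0784 to 0.0519. Deviations from means of only 3 libraries cannot settle whether the numbers mark pairs. With the replicate as a block, 1 member was called between 12 h and 24 h. A block over all 8 libraries, added after seeing the data and using the numbers of the column names (1 and 3 at 0 h), gave 4 calls at 12 h, 6 at 24 h, 0 between 12 h and 24 h and 5 over all times, with RRP9, RRP1B and RRS1 not past the threshold at 24 h (adjusted p = 0.0968, 0.0960 and 0.0630). With 2 libraries at 0 h, both comparisons with 0 h rest on the same pair.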
